A study of Mus musculus with 4 samples.

Results

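Dyneins are motor proteins that move along microtubules towards their minus ends. The genes described here encode the dynein chains of the axoneme, the microtubule core of cilia and of the sperm tail, the factors that assemble these arms in the cytoplasm, and the cytoplasmic dyneins that carry cargo and pull on spindles. They were the protein-coding genes of the deposited table whose symbols begin with Dnah, Dnai, Dnal, Dnali or Dnaaf and a digit, or with Dync or Dynl. The rule reads symbols and biotypes only. The rule found 38 of the 31600 features: 15 axonemal heavy chains, 3 axonemal light chains, 4 assembly factors, 5 chains of cytoplasmic dynein 1, 2 chains of cytoplasmic dynein 2 and 9 light chains shared between dyneins. It found 0 axonemal intermediate chains, because the table lists these under the older symbols Dnaic1 and Dnaic2, which are described with the partner genes. RNA had been measured by ribosomal-RNA-depleted long RNA sequencing in spermatogonial stem cells of the mouse, from which sperm production is renewed, as a differentiation group (2 libraries, given as Differentiation in the genotype field) and a control group (2 libraries, given as WT). The sources used here do not give how long or by what means the cells had been differentiated, nor whether 2 libraries of a group are separate cultures or animals. The p-values therefore measure only the spread between these libraries, which may be technical.

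In an axonemal dynein arm, heavy chains carry the motor, and intermediate and light chains hold the arm together and attach it to the microtubule doublet. Outer arms drive the beat and inner arms shape it. Heavy chains are folded and preassembled in the cytoplasm by the DNAAF proteins before they enter a cilium or flagellum. From human genetics, DNAH8 and DNAH17 are known as the outer arm heavy chains of the sperm tail, and DNAH5, DNAH9 and DNAH11 as those of airway cilia. In male germ cells, RNA of tail proteins begins to accumulate in meiotic prophase, before a tail is built. Cytoplasmic dynein 1 is present in nearly all cells, while cytoplasmic dynein 2 returns material from the tip of a cilium to its base.

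The axonemal genes as a group were far higher in differentiation, while the summed level of the cytoplasmic dynein 1 chains was nearly the same. Levels are FPKM, fragments scaled by exonic length and by the fragments of the library, as deposited by the authors. The 22 axonemal members summed to 390 and 406 FPKM in the differentiation libraries, against 55.7 and 55.9 FPKM in the control libraries. The 5 cytoplasmic dynein 1 chains summed to 129 and 127 FPKM in differentiation, against 123.6 and 123.5 FPKM in control. Most of that sum was the heavy chain Dync1h1, while single chains rose or fell. The test was limma on log2(FPKM + 1), fitted over the 23138 features whose mean over the libraries reached 0.5 FPKM, and a feature was called at a Benjamini-Hochberg adjusted p under 0.05. Of the 38 members 36 passed that filter, and 29 of these were called higher and 4 lower. Over all features tested, 29.6% were called higher and 27.0% lower, and over the protein-coding ones 32.5% higher and 34.0% lower. The increase was called and at least 1 on the log2(FPKM + 1) scale in 21 members, and in 9.70% of all features tested. The median log2 fold change of the tested members was 1.246, and that of all features tested was 0.01. Of the 36 members tested, 5 (Dnah3, Dnah6, Dnah7a, Dnah7c and Dynlrb2) had a control mean under 0.5 FPKM and passed only through the differentiation group. All 5 are among those called higher, so these counts and medians describe the members and do not measure how often such genes change. In every one of the 38 members the libraries of the groups did not overlap, with differentiation above control in 32 and below it in 6. Such separation was found in 79.9% of all features tested, with differentiation above control in 40.9% and below it in 39.1%. In the authors' deposited table, 29 members were called higher and 3 lower at an adjusted p under 0.05, against 22.0% and 20.3% of all its features.

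**Figure D1:**
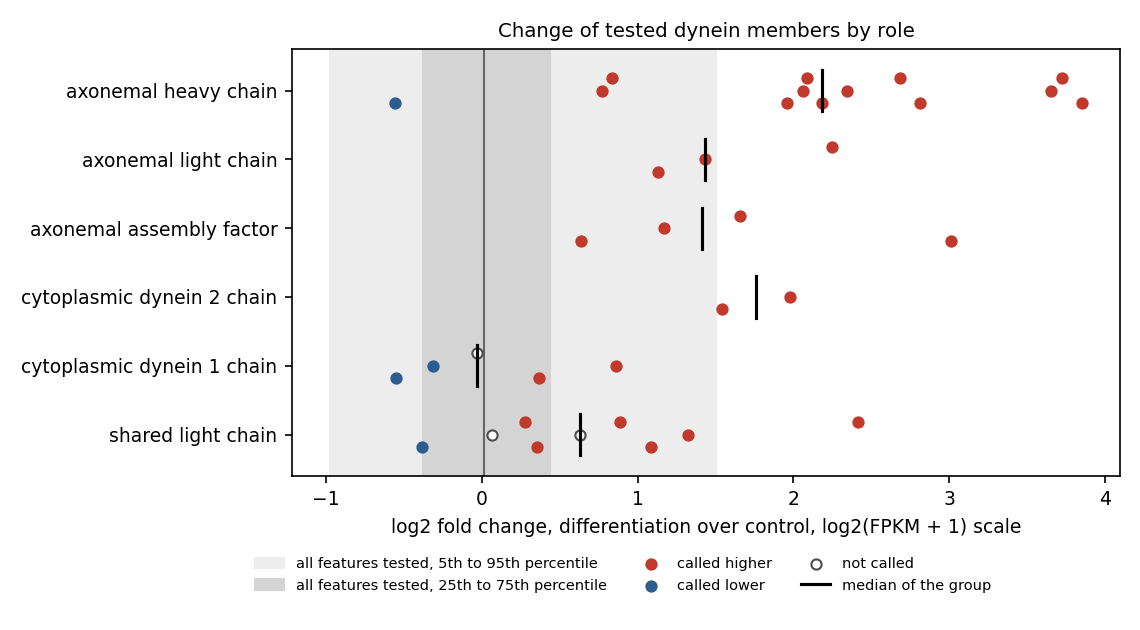
Change of the 36 tested dynein genes by role. Each point is a gene at its log2 fold change, differentiation over control, on the log2(FPKM + 1) scale, filled where called at limma adjusted p under 0.05. Black bars are group medians, and the grey bands show the spread of all 23138 features tested. The axonemal heavy chains have a median of 2.18 and the cytoplasmic dynein 1 chains one of -0.03.

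The promoter windows of 4 members are shown because they belong to the genes on which the comparison turns: Dnah8, the heavy chain with the highest level, Dnah7a, the member with the largest change, and Dynlrb2 and Dynlrb1, a pair of paralogous light chains that moved in opposite directions. Each window runs from 250 bases before to 50 bases after the RefSeq start of the gene on GRCm38.p6, on the strand of the gene, 5′ to 3′. Capitals mark the letters GTTGCC, part of the X-box bound by RFX factors, and AACGG, a core bound by MYB factors, on either strand (GGCAAC and CCGTT on the other). The letters AACTG, another MYB core, were searched but are not capitalised. The motifs may overlap each other, since the letters CCGTTGCC hold both.

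Dnah8, chr17:30626686-30626985, plus strand: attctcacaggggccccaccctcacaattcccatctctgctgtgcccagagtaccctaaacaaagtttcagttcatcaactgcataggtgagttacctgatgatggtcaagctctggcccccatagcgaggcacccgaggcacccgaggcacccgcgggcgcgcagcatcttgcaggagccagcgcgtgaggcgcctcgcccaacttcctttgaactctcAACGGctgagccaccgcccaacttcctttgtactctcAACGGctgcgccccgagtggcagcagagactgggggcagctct
Dnah7a, chr1:53706735-53707034, minus strand: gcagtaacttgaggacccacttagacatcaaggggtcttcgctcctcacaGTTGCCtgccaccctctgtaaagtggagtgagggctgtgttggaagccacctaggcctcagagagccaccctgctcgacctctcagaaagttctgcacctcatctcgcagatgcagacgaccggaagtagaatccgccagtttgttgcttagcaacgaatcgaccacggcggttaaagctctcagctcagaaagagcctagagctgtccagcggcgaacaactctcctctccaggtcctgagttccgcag
Dynlrb2, chr8:116504765-116505064, plus strand: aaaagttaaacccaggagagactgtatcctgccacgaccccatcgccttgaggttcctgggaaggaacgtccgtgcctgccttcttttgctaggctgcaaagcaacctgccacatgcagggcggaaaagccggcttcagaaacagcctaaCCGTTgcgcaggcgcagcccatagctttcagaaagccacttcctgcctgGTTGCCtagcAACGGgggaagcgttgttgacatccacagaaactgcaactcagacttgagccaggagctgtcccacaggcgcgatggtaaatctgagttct
Dynlrb1, chr2:155236283-155236582, plus strand: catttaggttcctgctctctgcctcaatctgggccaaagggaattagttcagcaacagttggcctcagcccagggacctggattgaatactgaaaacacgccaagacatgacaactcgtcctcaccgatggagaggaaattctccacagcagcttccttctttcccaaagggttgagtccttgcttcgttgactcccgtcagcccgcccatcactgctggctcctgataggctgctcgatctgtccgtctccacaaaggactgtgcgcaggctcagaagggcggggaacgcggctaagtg

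The Dynlrb2 window held GTTGCC at 51 bases before the start and AACGG at 41 bases before it, on the same strand. It also held AACGG on the other strand at 100 bases before the start. The Dnah8 window held AACGG at 30 bases before the start and again at base 8 after it, and no GTTGCC. That RefSeq start lies inside the annotated gene, which begins at chr17:30624354, so the window is not at its annotated 5′ end. The window also overlaps the antisense RNA 1700097N02Rik, at 92.0 and 80.5 FPKM in differentiation and at 6.20 and 6.13 FPKM in control. The Dnah7a window held GTTGCC at 200 bases before the start, and the Dynlrb1 window shown held neither motif. RefSeq windows matched 31 of the 38 members by symbol. GTTGCC was present for 11 of these 31 genes (35.5%), against 14.1% of the 27025 genes of the sequence table. Those 27025 genes were not limited by biotype, while all members are protein-coding, so the shares compare unlike sets. For GTTGCC, the 11 genes divide by role. They were 6 of 20 axonemal members (30.0%) and 5 of 11 cytoplasmic and shared ones (45.5%), Dync1i1 among them, which fell. The axonemal ones include Dnah7a, Dnah7b and Dnah7c, copies of a gene that are counted separately here. Their matches lay at 200, 163 and 219 bases before the start. AACGG was present for 10 of the 31 members (32.3%), against 19.6% of all genes. These were 9 of 20 axonemal members (45.0%), Dnah5 included, and 1 of 11 cytoplasmic and shared ones (9.09%). AACTG was present for 20 members (64.5%), against 48.2% of all genes. These are matches of letters and were not tested as binding sites.

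Among the axonemal heavy chains, 12 of the 13 tested members rose and Dnah11 fell, beside 29.6% higher and 27.0% lower of all features tested. Dnah8, known as a sperm outer arm chain, reached 186 and 192 FPKM in the differentiation libraries, against 13.6 and 13.1 FPKM in the control libraries, with a difference of 3.72 on the log2(FPKM + 1) scale (SE 0.04; limma adjusted p = 6.21e-05). These values rest on 88471 and 104935 fragments in differentiation and 7121 and 7263 in control. Dnah8 alone made up 63.4% and 62.8% of the summed heavy chain FPKM in differentiation, against 49.6% and 48.5% in control. Its merged exonic length is 26820 bases, against 12009 to 19980 bases in the other heavy chains. FPKM divides by that length. The gene lies at chr17:30624354-30877365 on the plus strand.

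Dnah17, the other sperm outer arm chain, was at 14.4 and 14.7 FPKM in differentiation and at 2.09 and 2.04 FPKM in control, and its log2 fold change was 2.34 (SE 0.05; limma adjusted p = 1.13e-04). Of the chains known from airway and nodal cilia, Dnah11 was the only one tested. Dnah11 was at 0.669 and 0.591 FPKM in differentiation, below 1.45 and 1.34 FPKM in control (log2 fold change -0.56, SE 0.10; limma adjusted p = 0.0109). Its call ended without differentiation replicate 2 or control replicate 1 (limma adjusted p = 0.0530 and 0.0578; 3.85e-09 to 0.0578 over its alternatives) and against a fold change of 1.2 (0.0545). Dnah11 shares 642 exonic bases with Cdca7l on the opposite strand, which was at 3.66 and 2.88 FPKM in differentiation and at 13.4 and 12.8 FPKM in control, and the part of such fragments in the Dnah11 values was not tested. Dnah5 did not pass the filter, with 4 and 12 fragments in the differentiation libraries against 19 and 24 in control. Dnah9 did not pass either and lay slightly above control, with 77 and 92 fragments in differentiation and 69 and 68 in control. With no filter on low values neither was called (limma adjusted p = 0.320 for Dnah5 and 0.352 for Dnah9). The ratio of Dnah17 to Dnah11 in FPKM was thus 21.5 and 24.9 in the differentiation libraries, against 1.44 and 1.52 in control.

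The inner arm heavy chains Dnah1, Dnah2, Dnah6, Dnah10 and Dnah12 all rose. Dnah1, an inner arm chain needed for sperm movement in mice and humans, was at 12.8 and 13.9 FPKM in differentiation, against 1.18 and 1.27 FPKM in control (log2 fold change 2.69, SE 0.07; limma adjusted p = 1.40e-04). Dnah2 was at 8.90 and 9.67 FPKM in differentiation and at 1.61 and 1.67 FPKM in control, and Dnah12 at 6.95 and 7.49 FPKM in differentiation and at 0.881 and 0.992 FPKM in control. Dnah6 was nearly absent from control, at 0.101 and 0.110 FPKM from 26 and 30 fragments, and reached 3.81 and 4.24 FPKM in differentiation, a 38.3-fold ratio of the means. Dnah10 had the smallest called increase of the heavy chains, with 4.30 and 4.55 FPKM in differentiation and 2.11 and 2.25 FPKM in control (log2 fold change 0.77). Dnah3 was low throughout, at 1.14 and 1.31 FPKM in differentiation and 0.291 and 0.206 FPKM in control (log2 fold change 0.83), and 10.5% of its exonic length is shared with Lyrm1 on the opposite strand, which also rose. Dnah14 was at 14.0 and 14.6 FPKM in differentiation and at 2.67 and 2.64 FPKM in control.

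By the ratio of mean FPKM, Dnah7a and Dnah7c, copies of an inner arm heavy chain gene on chromosome 1, changed most of all members. Dnah7a was at 15.1 and 16.2 FPKM in differentiation, against 0.149 and 0.152 FPKM in control, from 37 and 40 fragments. Dnah7c was at 13.03 and 13.75 FPKM in differentiation and at 0.135 and 0.150 FPKM in control. The log2 fold changes of Dnah7a and Dnah7c were 3.85 and 3.66 on the log2(FPKM + 1) scale, while the ratios of their mean FPKM were 104-fold and 94.2-fold. Dnah7b stood at a similar level in differentiation, 12.01 and 12.53 FPKM, but at 0.936 and 0.843 FPKM in control. The copies are near-identical in places: 26.6% of the 75-base stretches of Dnah7a, 21.01% of those of Dnah7b and 33.2% of those of Dnah7c also occur in transcripts of other genes. The sources used here do not give how the authors divided such reads, so the split between copies is uncertain. Their sum was 40.1 and 42.5 FPKM in differentiation, against 1.22 and 1.145 FPKM in control.

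**Figure D2:**
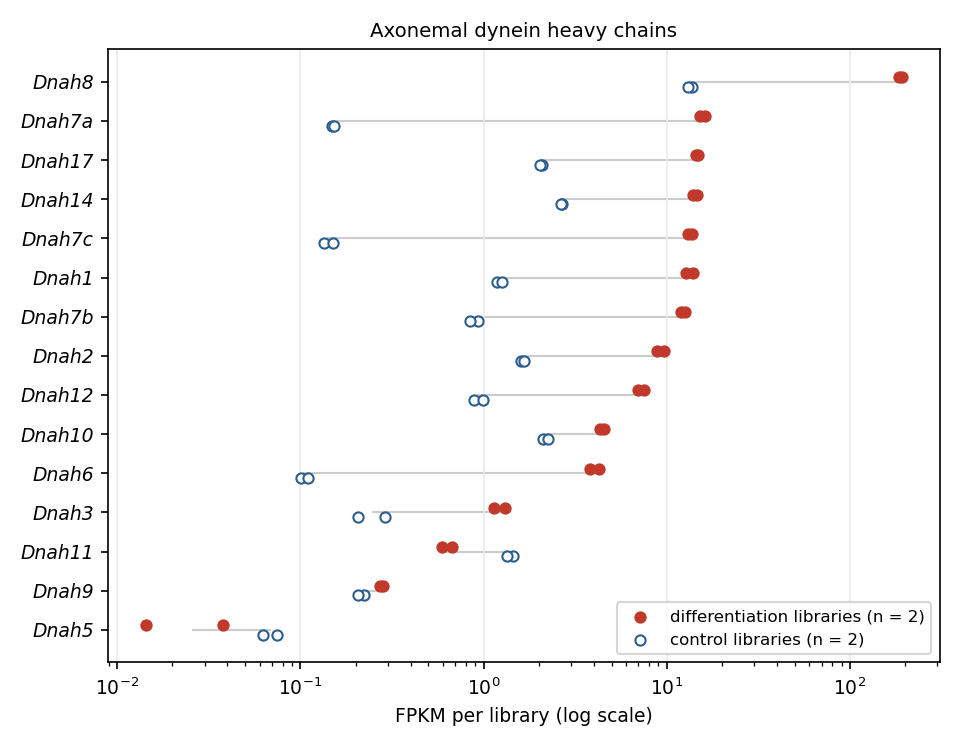
FPKM of the 15 axonemal heavy chains in each library, on a log axis, with filled points for differentiation and open points for control (2 libraries each) and a grey line between the group means. Dnah8 lies furthest right in both groups, and Dnah11 and Dnah5 are the chains with both differentiation libraries left of control.

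All 3 axonemal light chain genes rose. Dnali1, a light chain of inner arms, was at 8.94 and 9.14 FPKM in differentiation and at 1.13 and 1.09 FPKM in control (log2 fold change 2.25, SE 0.07; limma adjusted p = 1.74e-04). Dnal4, which is named as an outer arm light chain, was at 11.3 and 11.9 FPKM in differentiation and at 3.65 and 3.68 FPKM in control (log2 fold change 1.43). Dnal1, a leucine-rich repeat light chain that binds an outer arm heavy chain, was at 7.37 and 7.38 FPKM in differentiation and at 2.78 and 2.86 FPKM in control (log2 fold change 1.13). It shares 384 exonic bases with Pnma1 on the opposite strand. Pnma1 was at 15.4 and 14.1 FPKM in differentiation and at 0.937 and 0.862 FPKM in control. The part of such fragments in the Dnal1 values was not tested.

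The 4 assembly factors also rose, by unequal amounts. Dnaaf1, a leucine-rich repeat factor, was at 32.8 and 34.5 FPKM in differentiation and at 3.28 and 3.31 FPKM in control (log2 fold change 3.01, SE 0.05; limma adjusted p = 7.72e-05). Of its exonic length 20.7% is shared with Taf1c on the opposite strand, which was at 11.4 and 10.9 FPKM in differentiation and at 9.60 and 9.34 FPKM in control. Dnaaf2, a PIH-domain co-chaperone, was at 9.74 and 9.66 FPKM in differentiation and at 2.62 and 2.17 FPKM in control (log2 fold change 1.66). Dnaaf2 shares 32.7% of its exonic length with the non-coding RNA 9330151L19Rik on the opposite strand, which was at 13.2 and 12.5 FPKM in differentiation and at 3.76 and 2.68 FPKM in control. On the same strand it shares 22.3% of its exonic length with Gm49383 and 20.6% with Gm49384. In all, 66.3% of the 75-base stretches of Dnaaf2 also occur in transcripts of other genes. The sources used here do not say whether strand was used in counting, and the part of the overlapping genes in these values was not tested. Dnaaf3 was at 5.64 and 6.43 FPKM in differentiation and at 1.76 and 2.55 FPKM in control (log2 fold change 1.17), and its call ended without differentiation replicate 2 (limma adjusted p = 0.0505; 1.84e-08 to 0.0505 over its alternatives). Dnaaf5, a HEAT-repeat factor, already stood at 12.9 and 13.1 FPKM in control and was at 21.2 and 20.5 FPKM in differentiation (log2 fold change 0.64).

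Cytoplasmic dynein 1, the dynein of transport and spindles, had 2 of its 5 chains called higher and 2 lower, near the shares over all features tested (29.6% and 27.0%). Its heavy chain Dync1h1 was at 81.3 and 78.6 FPKM in differentiation and at 81.7 and 82.0 FPKM in control, and its log2 fold change was -0.03 (SE 0.03; limma adjusted p = 0.375). It was called lower after median centring (-0.11; limma adjusted p = 0.0366) and with limma-voom (-0.04; limma adjusted p = 0.0197), within a range of 0.0197 to 1.00 over its alternatives. Dnah8 was 2.28 and 2.44 times as high as Dync1h1 in the differentiation libraries by FPKM, against 0.167 and 0.160 times in control. The intermediate chains, which bind dynactin, moved apart. Dync1i2, the intermediate chain of most tissues, was at 15.7 and 14.7 FPKM in differentiation and at 7.96 and 7.91 FPKM in control (log2 fold change 0.86, SE 0.05; limma adjusted p = 5.58e-04). Dync1i1, known mainly from neurons, was at 2.19 and 2.43 FPKM in differentiation and at 4.00 and 3.70 FPKM in control (log2 fold change -0.55, SE 0.09; limma adjusted p = 0.00863). Its call ended without differentiation replicate 1 or control replicate 1 (limma adjusted p = 0.0517 and 0.0538; 1.92e-05 to 0.0538 over its alternatives). The light intermediate chains, which link the motor to cargo adaptors, had one called higher and one lower: Dync1li2 was at 17.3 and 18.5 FPKM in differentiation and at 13.5 and 13.8 FPKM in control, while Dync1li1 was at 12.9 FPKM in each differentiation library and at 16.4 and 16.2 FPKM in control. The log2 fold change was 0.37 for Dync1li2 (limma adjusted p = 0.00399) and -0.32 for Dync1li1 (limma adjusted p = 0.00289). Both calls ended against a fold change of 1.2 (limma adjusted p = 0.0989 for Dync1li2, in a range of 7.81e-08 to 0.0989, and 0.212 for Dync1li1, in a range of 1.17e-05 to 0.212).

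Both listed chains of cytoplasmic dynein 2 rose. Its heavy chain Dync2h1 was at 25.2 and 25.6 FPKM in differentiation and at 8.01 and 8.14 FPKM in control (log2 fold change 1.54, SE 0.03; limma adjusted p = 1.12e-04). Its light intermediate chain Dync2li1 was at 10.9 and 11.8 FPKM in differentiation and at 2.02 and 2.23 FPKM in control (log2 fold change 1.98, SE 0.07). The ratio of Dync2h1 to Dync1h1 was 0.311 and 0.325 in differentiation, against 0.0981 and 0.0993 in control.

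**Figure D3:**
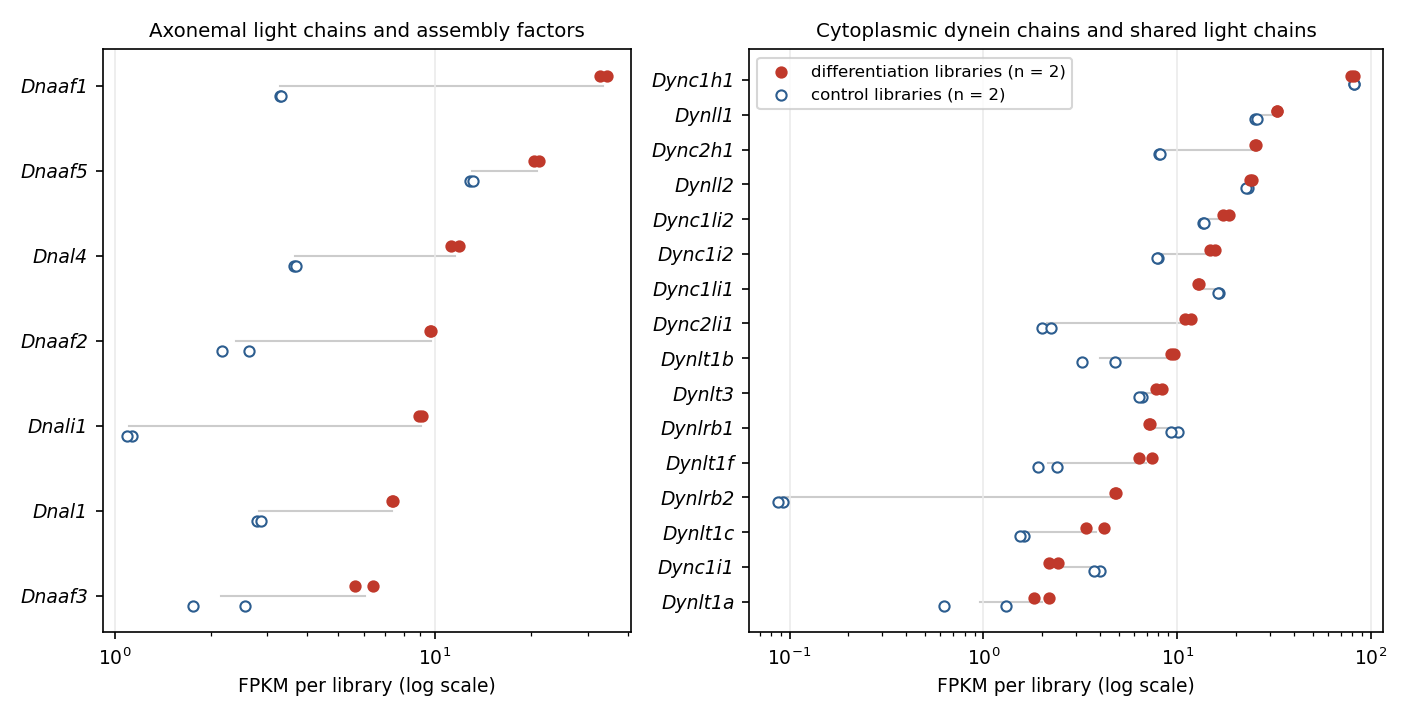
FPKM of the axonemal light chains and assembly factors (left) and of the cytoplasmic and shared dynein chains (right) in each library, on log axes that differ between the panels. Filled points are differentiation and open points control libraries (2 each), and grey lines join the group means. Dync1h1 stands near 80 FPKM in all 4 libraries, while Dynlrb2 lies at 4.76 and 4.86 FPKM in differentiation and under 0.1 FPKM in control.

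The shared light chains rose in 6 of 9 members and fell in 1, beside 29.6% higher and 27.0% lower of all features tested. The roadblock light chains differed most. Dynlrb2, the roadblock chain found in testis and ciliated tissues, was at 4.76 and 4.86 FPKM in differentiation, from 47 and 55 fragments, against 1 fragment in each control library. The ratio was 53.6-fold, with an exact 95% counting interval of 14.5 to 449. Its log2 fold change on the log2(FPKM + 1) scale was 2.41 (SE 0.09; limma adjusted p = 2.23e-04). Dynlrb1, the roadblock chain of most cells, was at 7.19 and 7.20 FPKM in differentiation and at 10.1 and 9.26 FPKM in control (log2 fold change -0.38, SE 0.06; limma adjusted p = 0.00772), a call that ended without either differentiation replicate (limma adjusted p = 0.0546 and 0.0547; 0.00363 to 0.131 over its alternatives). In the authors' deposited table Dynlrb1 was not called (adjusted p = 0.0614 by the authors' test, which is not stated). The ratio of Dynlrb2 to Dynlrb1 was 0.661 and 0.674 in the differentiation libraries, against 0.00912 and 0.00940 in control.

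The LC8 chains are small dimeric hubs that have many partners besides dynein, and 1 of them was called higher. Dynll1 was at 32.7 and 32.8 FPKM in differentiation and at 25.1 and 25.7 FPKM in control (log2 fold change 0.35, SE 0.03; limma adjusted p = 0.00143), a call that ended against a fold change of 1.2 (limma adjusted p = 0.0507; 3.57e-08 to 0.0507 over its alternatives). Dynll2 was at 23.7 and 24.2 FPKM in differentiation and at 23.1 and 22.6 FPKM in control. Its log2 fold change was 0.06 (SE 0.03; limma adjusted p = 0.159) and turned to -0.08 after quantile normalization and -0.01 after median centring. Dynlt3, a Tctex-type chain on the X chromosome, was at 7.78 and 8.31 FPKM in differentiation and at 6.602 and 6.354 FPKM in control. Its log2 fold change of 0.27 (limma adjusted p = 0.0183) was no longer called without differentiation replicate 2 (limma adjusted p = 0.0848), without control replicate 1 (0.0590) or 2 (0.0820), or after quantile normalization (0.0723), within 0.00529 to 0.689 over its alternatives.

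The Tctex-type chain Dynlt1 has 4 protein-coding copies on chromosome 17. Their sum was 22.28 and 22.03 FPKM in differentiation, against 8.90 and 8.47 FPKM in control. Dynlt1f was at 7.39 and 6.39 FPKM in differentiation and at 1.91 and 2.40 FPKM in control (log2 fold change 1.32), and Dynlt1c at 3.397 and 4.187 FPKM in differentiation and at 1.62 and 1.55 FPKM in control (0.89). Dynlt1b was at 9.67 and 9.27 FPKM in differentiation and at 4.75 and 3.22 FPKM in control (1.09), and all 3 were called higher. Dynlt1a was at 1.82 and 2.18 FPKM in differentiation and at 0.623 and 1.31 FPKM in control (log2 fold change 0.63; limma adjusted p = 0.0614), and it was called with limma-voom, without control replicate 2 and with a replicate block (limma adjusted p = 8.30e-05, 0.0269 and 0.0350, in a range of 8.30e-05 to 0.237 over its alternatives). The Dynlt1b call ended without differentiation replicate 1 or 2 (limma adjusted p = 0.0651 and 0.0603; 4.94e-06 to 0.0651 over its alternatives). Between 62.4% and 84.8% of the 75-base stretches of these copies also occur in transcripts of other genes, so the split between them is uncertain. The processed pseudogene Dynlt1-ps1 on chromosome 6, which is no member, was listed far above all 4 genes, at 136 and 146 FPKM in differentiation and at 36.7 and 37.7 FPKM in control. All 268 of its 75-base stretches also occur in Dynlt1f, and its annotated exon is 342 bases long, so its fragments and those of the gene copies cannot be told apart. Named for the same reason, the antisense RNA Dnah2os was at 4.26 and 4.40 FPKM in differentiation and at 1.44 and 1.30 FPKM in control, and shares 312 exonic bases with Dnah2.

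**Figure D4:**
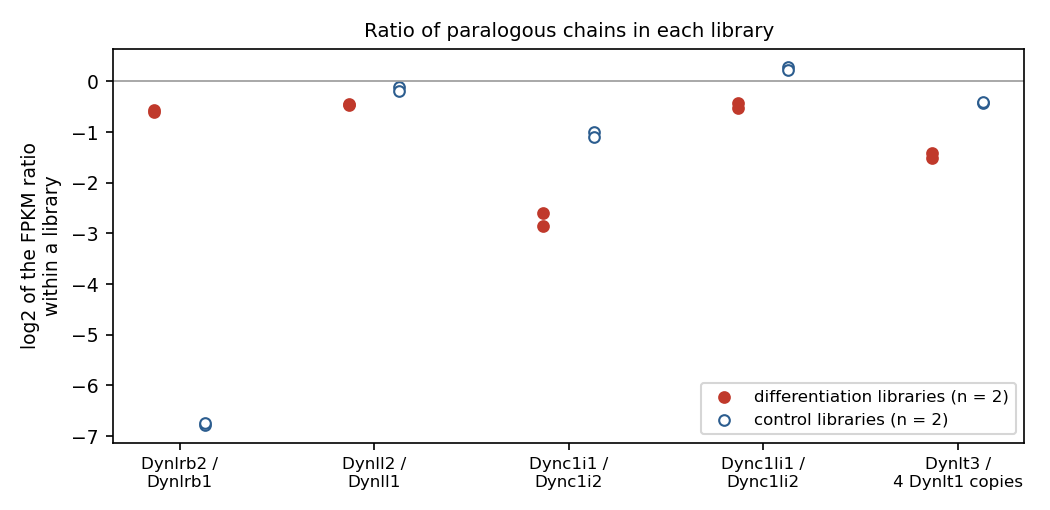
log2 of the FPKM ratio between paralogous dynein chains within each library, with filled points for differentiation and open points for control (2 libraries each). The ratio of Dynlrb2 to Dynlrb1 shows the widest gap, 6.17 on the log2 scale, and the ratios of Dync1i1 to Dync1i2 and of Dynlt3 to the summed Dynlt1 copies are lower in differentiation.

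Ratios within a library do not depend on the scaling between libraries. The log2 ratio of Dynlrb2 to Dynlrb1 averaged -0.58 ± 0.02 in differentiation and -6.75 ± 0.03 in control (SD, n = 2 each, exact permutation p = 0.33, two-sided). The control value rests on 1 Dynlrb2 fragment in each library, and the difference of 6.17 became 2.80 with a pseudocount of 1 FPKM. That p is the smallest that 2 libraries against 2 allow, and all 5 ratios gave it. The log2 ratio of Dync1i1 to Dync1i2 averaged -2.72 ± 0.18 in differentiation and -1.04 ± 0.07 in control (SD, n = 2 each). For Dync1li1 to Dync1li2 it averaged -0.47 ± 0.07 in differentiation and 0.25 ± 0.04 in control (SD, n = 2 each). The order of these chains by FPKM thus turned round. By fragments, not divided by exonic length (3871 bases for Dync1li1, 6027 for Dync1li2), Dync1li2 was the higher in every library. The log2 ratio of Dynll2 to Dynll1 averaged -0.45 ± 0.01 in differentiation and -0.15 ± 0.05 in control, and that of Dynlt3 to the summed Dynlt1 copies averaged -1.46 ± 0.08 in differentiation and -0.42 ± 0.01 in control (SD, n = 2 each).

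Genes that work with axonemal dyneins were higher in differentiation as well. The intermediate chains Dnaic1 and Dnaic2, which anchor outer arms, were at 8.54 and 9.51 FPKM and at 1.21 and 1.08 FPKM in differentiation, against 0.831 and 1.22 FPKM and 0.247 and 0.148 FPKM in control, and both were called higher. The list of assembly factors under other symbols also held Ccdc39, Ccdc40 and Tbc1d31, which are not known to preassemble arms in the cytoplasm. Of its 15 tested genes 13 rose and 0 fell, with a median log2 fold change of 1.53. Ccdc39, Ccdc40 and Tbc1d31 were all among those that rose. Zmynd10, which helps to fold heavy chains, was at 46.2 and 43.8 FPKM in differentiation, against 0.628 and 0.591 FPKM in control. Ccdc39, which sets the spacing of inner arms, was at 15.7 and 15.5 FPKM in differentiation and at 2.55 and 2.31 FPKM in control. Pih1d3, a PIH-domain co-chaperone, was at 4.85 and 4.54 FPKM in differentiation, against 0.0354 and 0.0667 FPKM in control. The general chaperone ATPases Ruvbl1 and Ruvbl2, which also act outside cilia, had log2 fold changes of 0.03 and 0.11 and were not called (limma adjusted p = 0.392 and 0.220). Ruvbl1 turned to -0.11 after quantile normalization and was then called lower (limma adjusted p = 0.0323; 0.0323 to 1.00 over its alternatives). All 8 tested members of the nexin-dynein regulatory complex, which links neighbouring doublets, rose (median 1.89), as did all 7 tested radial spoke genes (median 1.62) and all 4 tested genes of the outer arm docking complex (median 1.42). The lists held 10, 8 and 7 genes of the table, and the others were under the filter. One of these, the docking list gene Efcab1, was lower, at 0.203 and 0.138 FPKM in differentiation and 0.474 and 0.583 FPKM in control, and was called lower with no filter (limma adjusted p = 0.0191). At a mean of at least 2 FPKM 1 docking gene was tested. Rsph1, a radial spoke head protein, was at 103.5 and 103.4 FPKM in differentiation, against 1.06 and 0.998 FPKM in control. The smallest p-values in the nexin-dynein list belonged to Efcab2, Iqcg and Ccdc65, with log2 fold changes of 2.54, 2.30 and 2.61, and Rsph3b and Rsph3a followed Rsph1 in the spokes, with 1.62 and 1.95. In the docking list Ttc25, Armc4 and Ccdc151 had log2 fold changes of 1.70, 1.13 and 1.76. Over all features tested the median was 0.01, and 29.6% were higher and 27.0% lower. Some list genes had a control mean under 0.5 FPKM and passed the filter only through the differentiation group. These were Ttc25, Armc4 and Ccdc151 (docking), Drc1, Drc7 and Tcte1 (nexin-dynein), Rsph6a and Rsph14 (spokes), and Dnaic2. In the assembly list they were Pih1d3, Daw1, Lrrc6, Dyx1c1 and Ccdc103. All were called higher, so these counts and medians describe the lists and do not measure how often such genes change.

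Partners of cytoplasmic dynein were mixed. Dynactin, the activator that joins dynein 1 to cargo, had 7 of 12 subunits higher and 2 lower (median 0.37), where 29.6% of all features tested were higher and 27.0% lower. The subunit Capza2, not called here, was called lower with limma-voom, median centring and quantile normalization (log2 fold changes -0.14, -0.21 and -0.27). Capza1, which caps the barbed end of its filament, was at 37.5 and 38.7 FPKM in differentiation and at 15.8 and 16.0 FPKM in control. The actin-related subunit Actr1a was at 47.6 and 46.1 FPKM in differentiation and at 19.8 and 22.1 FPKM in control, while its paralog Actr1b was at 10.1 and 11.3 FPKM in differentiation and at 16.3 and 17.3 FPKM in control. Dctn2, which links the arm to the filament, had a log2 fold change of 0.94. Dctn1, the large arm subunit, was the other that fell, with a log2 fold change of -0.35. Of 17 regulators and cargo adaptors of dynein, 2 rose and 10 fell (median -0.20). Those that rose were Pafah1b1, which holds dynein on microtubules, and Hook1, an adaptor needed for sperm head shape in mice. Rab11fip3, an adaptor for recycling endosomes, had the smallest p of those that fell, with a log2 fold change of -0.52. Without differentiation replicate 1, differentiation replicate 2 or control replicate 2, 6 of the 17 were called lower.

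**Figure D5:**
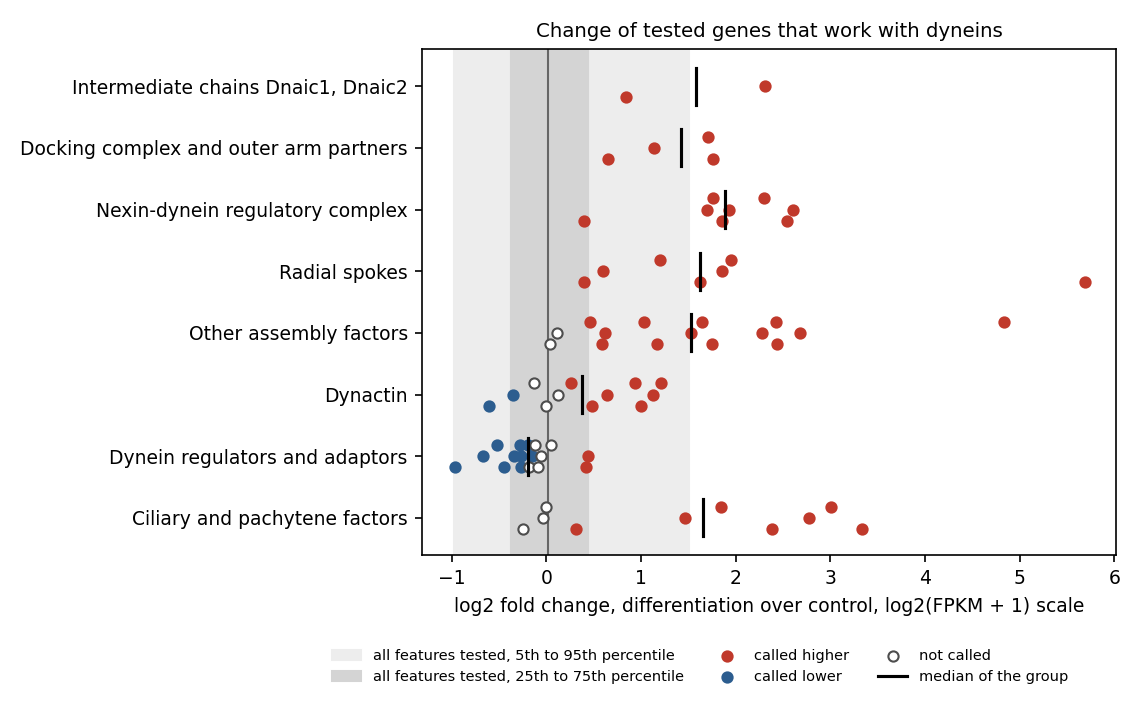
Change of genes that work with dyneins, by list. Each point is a tested gene at its log2 fold change, differentiation over control, on the log2(FPKM + 1) scale, black bars are list medians and the grey bands show the spread of all 23138 features tested. The axonemal lists lie to the right, and the regulators and adaptors of cytoplasmic dynein centre on -0.20.

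Transcription factors known for ciliary and pachytene genes were tested as one further list, in which 7 of 10 rose and 0 fell, beside 29.6% and 27.0% of all features tested. Rfx1, an RFX factor of many tissues, was at 3.404 and 3.788 FPKM in differentiation and at 4.41 and 4.47 FPKM in control. It was not called (log2 fold change -0.24; limma adjusted p = 0.0564) but was called lower under 5 of 14 alternatives, with 0.00273 to 0.873 over all of them. Rfx2, an RFX factor of male germ cells, was at 39.2 and 40.5 FPKM in differentiation and at 2.62 and 3.51 FPKM in control (log2 fold change 3.34). Mybl1, the MYB factor of pachytene spermatocytes, was at 28.6 and 29.5 FPKM in differentiation and at 4.97 and 4.51 FPKM in control (log2 fold change 2.39). Sox30 was at 14.3 and 15.2 FPKM in differentiation, against 1.30 and 1.31 FPKM in control. Crem was at 10.7 and 10.3 FPKM in differentiation and at 2.14 and 2.28 FPKM in control (log2 fold change 1.85). Rfx4 was at 7.71 and 8.85 FPKM in differentiation, against 0.131 and 0.174 FPKM in control, and passed the filter only through the differentiation group. Foxj1, the main factor of motile cilia in epithelia, was at 1.42 and 1.67 FPKM in differentiation and at 1.45 and 1.64 FPKM in control, with overlapping groups (limma adjusted p = 0.979).

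Markers of several cell types and states also differed between the groups, some higher in differentiation and some lower. Over all features tested, 29.6% were called higher and 27.0% lower. The 10 markers of meiotic prophase all rose and summed to 958 and 970 FPKM in differentiation, against 115 and 118 FPKM in control. Of these, Pgk2, Ccna1, Spag6 and Tdrd6 had a control mean under 0.5 FPKM and passed the filter only through the differentiation group. The spermatid markers summed to 11.97 and 10.29 FPKM in differentiation and to 9.42 and 7.96 FPKM in control, with 2 of 5 tested members higher. Tnp2 was at 1.54 and 1.52 FPKM in differentiation and at 0.468 and 0.176 FPKM in control. Prm1 was at 0.960 and 0.942 FPKM in differentiation and at 0.329 and 0.207 FPKM in control. Tnp2 and Prm1 are the 2 called, and they passed the filter only through the differentiation group. Akap4 and Odf1, tail proteins of late spermatids, stayed under 0.5 FPKM in every library. Markers of undifferentiated spermatogonia summed to 46.4 and 45.9 FPKM in differentiation and to 139 and 142 FPKM in control. Of these 10 markers 7 fell and Id4 rose. The germ cell markers summed to 869.5 and 872.1 FPKM in differentiation and to 457.4 and 451.6 FPKM in control. Of these, Tex101, Mael, Ddx4 and Dazl rose (3.61-fold, 2.50-fold, 1.83-fold and 1.33-fold by mean FPKM) and Dppa4 fell. The markers of fibroblasts and peritubular cells summed to 73.1 and 68.0 FPKM in differentiation and to 212 and 214 FPKM in control. Those of leukocytes summed to 15.7 and 14.9 FPKM in differentiation and to 53.6 and 50.8 FPKM in control. The 8 markers of multiciliated epithelium summed to 16.4 and 15.6 FPKM in differentiation and to 6.15 and 6.69 FPKM in control. Of these, 3 were tested and 1 was called higher, Tekt1, also a sperm tail gene. Tekt1 gave 11.3 and 10.9 FPKM in differentiation and 0.539 and 0.239 FPKM in control, and passed the filter only through the differentiation group. Ccno, not called, was at 2.40 and 1.56 FPKM in differentiation and at 3.18 and 3.28 FPKM in control. Under the filter, Deup1 was at 0.527 and 0.460 FPKM in differentiation and at 0.124 and 0.380 FPKM in control. Mcidas, a defining factor of such cells, stayed under 0.15 FPKM. Sertoli markers (144 and 134 FPKM in differentiation, 127 and 128 FPKM in control), Leydig markers (21.3 and 20.9 FPKM in differentiation, 37.1 and 38.2 FPKM in control) and endothelial markers (6.69 and 6.91 FPKM in differentiation, 12.5 and 12.4 FPKM in control) were also present. Of the 8 Sertoli markers 4 rose and 3 fell. Of the Leydig markers Cyp11a1 fell to 2.60 and 2.30 FPKM in differentiation, against 16.8 and 16.4 FPKM in control, and Hsd3b1 fell too, while Star was at 17.3 and 17.0 FPKM in differentiation and at 9.89 and 10.1 FPKM in control. The part of cell composition in the dynein values was not tested, and in these bulk libraries fewer cells of a type and less RNA per cell cannot be told apart.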

How the data were processed

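Long RNA was sequenced in 4 libraries of mouse spermatogonial stem cells, 2 of the differentiation group and 2 of the control group, from TRIzol-extracted, ribosomal-RNA-depleted RNA, per the labels' protocols. HISAT2 and GRCm38 are named in the submitters' processing notes, and the counter, annotation, use of strand and test are not stated in those sources. The authors deposited 1 table, with an FPKM for each feature in each library and their log2 fold change, p-value and adjusted p-value.

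Exonic lengths came from GENCODE M21, which matched 31536 of 31600 identifiers. With them, FPKM steps gave scales of 17771900 and 20363300 fragments in differentiation and 19461600 and 20650100 in control, at which 96.2% of features under 300 fragments were whole within 0.05. Features that resemble ribosomal RNA held 19.0% and 18.2% of these fragments in differentiation and 23.1% and 20.9% in control. Such shares enter the scale of every FPKM, and their part in small changes was not tested. The variance between libraries of a group was 1.73 and 1.76 times Poisson in differentiation and control. Fragment intervals cover counting error only.

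limma 3.58.1 in R 4.3.3 was run on log2(FPKM + 1) with an intensity trend and group as the only term (2 residual and 2.14 prior degrees of freedom), two-sided. That scale understates the change of low genes. The procedure was tested on simulated data with known changes. Alternatives were 2 other pseudocounts (0.1 and 0.5), filters, scalings, the prior, a replicate block, leaving out each library, a minimum fold of 1.2 and limma-voom. Members and lists were chosen with earlier results of these data known. Each role class gives library values for its 4 smallest p, calls against its majority and members of at least 20 FPKM, and the remaining members are given as well. Partner lists give their 3 smallest p and calls against the majority. Rfx1, Rfx2, Rfx4, Foxj1, Capza2, Efcab1, Ruvbl1, Ruvbl2 and the single markers were named after their values were seen. So were the list genes named for a control mean under 0.5 FPKM. Python 3.11.15, pandas 2.3.3 and scipy 1.17.1 were used. Same-numbered libraries did not deviate together (correlation -0.000408 over features).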

Additional observations from a re-analysis of the deposited data

How the results depend on the processing

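Of the 36 tested members, 24 kept their direction and their side of the threshold under every one of the 14 alternatives that tested them. The number of members called higher was 26 to 30 throughout (29 as reported), and only the smaller group of lower calls (4) moved by more than 1.5 times. Against a fold change of 1.2 the number called lower was 1 of all members, 0 of the axonemal members and of their heavy chains, 1 of the cytoplasmic dynein 1 chains (with 1 higher), 1 of all cytoplasmic and shared members and 0 of the shared light chains. Over all features 4409 were then called higher and 3572 lower. Leaving out 1 library gave 2 to 4 members lower, 0 to 1 of the axonemal heavy chains and of the axonemal members, 1 to 2 of the dynein 1 chains, 1 to 3 of the cytoplasmic and shared members, 0 to 1 of the shared light chains and 6 to 7 of the adaptors (10 as reported). A group left with 1 library is then assumed to vary like the other. With a mean of at least 2 FPKM, 0 axonemal members and 0 heavy chains were lower, and only 1 of the genes Dnaic1 and Dnaic2 was tested and called (1 higher). In the related lists, 1 docking gene (Efcab1) was lower with no filter and 1 higher at a mean of at least 2 FPKM. 1 assembly factor under another symbol (Ruvbl1) was lower after quantile normalization. Against the fold of 1.2, 1 dynactin subunit and 4 adaptors were lower. 1 transcription factor (Rfx1) was lower at a mean of at least 2 FPKM, after quantile normalization or median centring, with no trend and with limma-voom. The Dynll2 log2 fold change was -0.0791 after quantile normalization and -0.0109 after median centring. The log2 ratio of Dynlrb2 to Dynlrb1 differed between groups by 6.17, by 5.12 with a pseudocount of 0.1 and by 2.80 with 1. That of Dync1i1 to Dync1i2 differed by -1.68, and by -1.41 with a pseudocount of 1. The cause of these moves was not tested, apart from that of the filters, which change which genes are tested. The replicate numbers only name libraries, and with the replicate block 30 members were called higher and 4 lower. Depth limits Dynlrb2 and Dnah5, which had 1 and 19 to 24 fragments in the control libraries.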
